A study of Caenorhabditis elegans with 20 samples.

Results

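Nuclear hormone receptors are transcription factors that bind DNA through a zinc finger domain and, in many cases, respond to a small lipophilic ligand such as a steroid, a fatty acid or a foreign compound. The nematode Caenorhabditis elegans carries far more of these genes than insects or mammals, most of them derived from an ancestor related to the vertebrate HNF4 receptors, and the best studied act in the intestine on fat metabolism, vitamin B12-dependent metabolism, detoxification and development. The genes described here are those whose WormBase symbol is nhr- and a number, with nhr-23 and nhr-25 left out. They were 267 of the 46778 genes in the deposited tables.

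Total RNA of day 1 adults was sequenced in 20 libraries of 5 strains, 4 each: the N2 wild type, the progranulin mutant CF3050, pgrn-1(-), called the null below, and 3 strains with the same mutation that also carry 1 granulin: AWK33 with granulin 1(+), AWK43 with granulin 2(+) and AWK107 with granulin 3(+). Progranulin is a secreted precursor that is cleaved into granulins, and the comparisons ask how the mutation and each granulin go with gene expression. All animals were synchronised from an egg lay and received no other treatment. The sources used here do not give the promoter behind each granulin. With a single strain per granulin, a granulin effect and any other difference of that strain cannot be told apart. Separate cultures are not stated for the 4 libraries of each strain, and the p-values therefore reflect the spread among these libraries alone, which may be technical.

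Libraries held 48279370 to 128776517 reads. Reads of pgrn-1 followed the labels: scaled CPM (counts per total reads, after scaling between libraries) were 0.0984 to 0.356 in the null, 10.7 to 36.9 in wild type and 118 to 1035 in the granulin strains. The names of the wild-type, granulin 1 and granulin 3 libraries carry the letters A to D and those of the null and granulin 2 libraries E to H. The sources used here do not say what the letters stand for. If they are batches, the strain and the batch cannot be told apart in the null against wild type or in granulin 1 and granulin 3 against the null. The comparison of granulin 2 with the null lies within 1 set of letters, as do those of granulin 1 and granulin 3 with wild type. Among the libraries, granulin 1 replicate 3 stood apart: of the 181 receptor genes tested it was the highest granulin 1 library in 141 and the lowest in 25. Its levels also fell most steeply with transcript length. Null replicate 1 was the highest null library in 112 of the receptor genes and the lowest in 33. Wild type replicate 4, with 44.8% of its reads from ribosomal RNA, was the highest wild-type library in 108 and the lowest in 34. Granulin 2 replicate 3, with 52.7% of such reads, was the highest of its strain in 19 and the lowest in 26. Granulin 2 replicates 2 and 4 were the highest or lowest of their strain in 71.8% and 70.2% of the receptor genes, and granulin 3 replicate 2 in 66.3%.

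Most receptor genes were detected at a low level. Of the 267 genes, 180 had at least 1 read in all 20 libraries and 7 had no read in any. The filter on low counts left 181 receptor genes to test (67.8%, against 75.3% of all protein-coding genes). The other 86 included 79 with some reads, at most 46 in a library. Per kilobase of exon, the median level of the genes tested was 1.53 CPM, against 5.26 CPM over all protein-coding genes tested. The mean over strains reached 1 CPM per kilobase in 117 receptor genes and 10 CPM per kilobase in 12. The 10 highest genes held 38.7% of the summed level per kilobase of all 267, and the highest pair held 19%. The summed level of all receptor genes, not divided by length, lay between 903 and 1410 CPM in single libraries.

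The genes lie mostly on chromosome V, which holds 167 of them (62.5%), against 25.1% of all protein-coding genes. Chromosome IV holds 33, chromosomes I and X hold 22 each, chromosome II holds 15 and chromosome III holds 8. Adjacency is common: 141 receptor genes lie in 46 runs of 2 or more with no other protein-coding gene between them, 33 of the runs on chromosome V, and the longest run has 9 genes. On chromosome I, 7 of 22 genes (31.8%) passed the filter, against 117 of 167 (70.1%) on chromosome V. The median level of the genes tested was 1.18 CPM per kilobase on chromosome V and 4.92 on chromosome X.

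The highest mean level was that of nhr-114, which protects the germline on certain bacterial diets and acts on the methionine cycle. It had 112, 119, 50.5 and 352 CPM in the wild-type libraries, 139, 111, 36.3 and 119 in the null, and 14.4 to 153 in the granulin strains. Per kilobase this was 104.4 ± 87.1 CPM in wild type (SD, n = 4), a mean that rests on replicate 4, and 51.7 ± 15.3 to 66.6 ± 29.5 CPM in the other 4 strains. All 5 strains overlapped. nhr-49, a central regulator of fatty acid desaturation and β-oxidation, came next with 63 ± 22.6 CPM per kilobase in wild type, 43.4 ± 12 in the null, 46.8 ± 22.7 in granulin 1, 39.9 ± 8.36 in granulin 2 and 54.5 ± 15.5 in granulin 3 (SD, n = 4 each). All 5 strains overlapped for nhr-49 too. The next 3 were nhr-68 at 19.8 ± 8.32 CPM per kilobase in wild type, nhr-66 at 22.9 ± 9.2 and nhr-46 at 16.2 ± 2.7 (SD, n = 4 each). NHR-68 acts with NHR-10 in switching on the propionate shunt, and NHR-66 is a partner of NHR-49 in lipid metabolism. nhr-69, nhr-31, nhr-97, nhr-10 and nhr-86 completed the 10 highest, with wild-type means of 11.3 to 14.1 CPM per kilobase. In this order of 10, the libraries of neighbouring genes overlapped in all 5 strains or in 4 of 5.

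**Figure D1:**
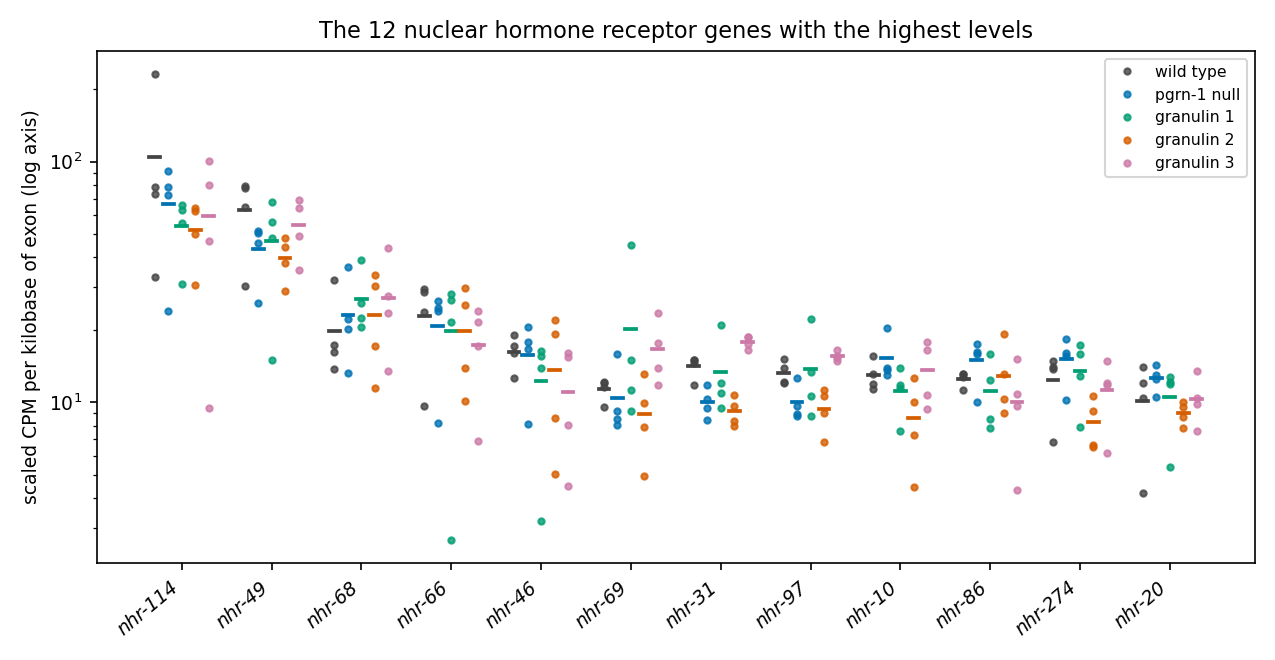
Levels of the 12 receptor genes with the highest mean, in scaled CPM per kilobase of exon on a log axis, with 1 point per library, 4 libraries per strain and a short line at each strain mean. The highest point is wild type replicate 4 for nhr-114, and the 5 strains overlap for most of these genes.

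In the null against wild type, no receptor gene passed the threshold of an adjusted p below 0.05 (limma with Benjamini-Hochberg adjustment over the 15737 genes tested, used throughout), and 0.197% of all genes did. At an unadjusted p below 0.05 there were 12 receptor genes (6.63%), against 10.3% of all genes, and limma's voom test also called 0. The median log2 fold change was -0.09 over the receptor genes and -0.003 over all genes. The libraries of both strains did not overlap for 19 receptor genes (10.5%, against 10.4% of all genes). Of these, 14 were lower in the null (7.73%, against 5.62% of all genes) and 5 were higher (2.76%, against 4.73%).

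The 2 smallest p-values belonged to genes with lower levels in the null. nhr-116 was at 0.853, 1.05, 1.27 and 0.72 CPM in wild type and 0.437 to 0.476 CPM in the null, a log2 fold change of -1.0 ± 0.26 (SE, n = 4; limma adjusted p = 0.169). nhr-15 was at 0.635 to 1.11 CPM in wild type and 0.367 to 0.558 CPM in the null, a log2 fold change of -0.84 ± 0.28 (SE, n = 4; limma adjusted p = 0.293). Neither passed the test.

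Among the genes with higher levels in the null, nhr-12 was at 11, 8.66, 11.9 and 14.3 CPM in wild type and 30.5, 16.5, 20.4 and 20.1 CPM in the null. nhr-13, which encodes a binding partner of NHR-49, was at 6.92, 6.47, 6.58 and 7.03 CPM in wild type and at 11.4, 11.6, 12.6 and 10.4 CPM in the null. Every null library lay above every wild-type library for both genes, but neither passed the test, with log2 fold changes of 0.92 ± 0.32 for nhr-12 (SE, n = 4; limma adjusted p = 0.312) and 0.77 ± 0.33 for nhr-13 (SE, n = 4; limma adjusted p = 0.433).

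In granulin 1 no receptor gene passed the threshold against either comparison strain. Against the null 0 of 181 were called by limma and by voom, with 16 at an unadjusted p below 0.05 (8.84%), where 0.47% of all genes were called and 7.47% had an unadjusted p below 0.05. Against wild type 0 were called by both tools, with 7 at an unadjusted p below 0.05 (3.87%), where 0.324% and 8.98% of all genes were. The median log2 fold change of granulin 1 was 0.25 over receptor genes and 0.04 over all genes against the null, and 0.18 and 0.01 against wild type. The granulin 1 means behind these values include replicate 3. Its receptor levels had a median of 1.09 above the other granulin 1 libraries on the log2 scale. The same median was -0.39, -0.21 and -0.44 for replicates 1, 2 and 4. The median standard deviation of receptor genes within granulin 1 was 0.66 on the log2 scale, against 0.33 to 0.41 in the other 4 strains. Over all genes tested it was larger in every strain, at 0.78 in granulin 1 and 0.42 to 0.56 in the other 4.

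In granulin 2 against the null, 18 of 181 receptor genes changed (9.94%), against 21.7% of all genes. Of these, 13 were higher (7.18%, against 17.5% of all genes) and 5 were lower (2.76%, against 4.19%). The median log2 fold change was 0.05 over receptor genes and 0.04 over all genes. The granulin 2 and null libraries did not overlap for 39 receptor genes (21.5%, against 30.3% of all genes). The count of receptor genes called was 5 on the deposited scale and 35 with each library's length slope as a covariate, and among protein-coding genes alone the split was 5 higher and 7 lower. The share of all genes called in those runs is not given here, so these counts do not single out the receptor genes. The summed level of sperm genes was 65.5 to 125 CPM in granulin 2 and 6.32 to 13.3 CPM in the null, and its part in the receptor values was not tested.

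**Figure D2:**
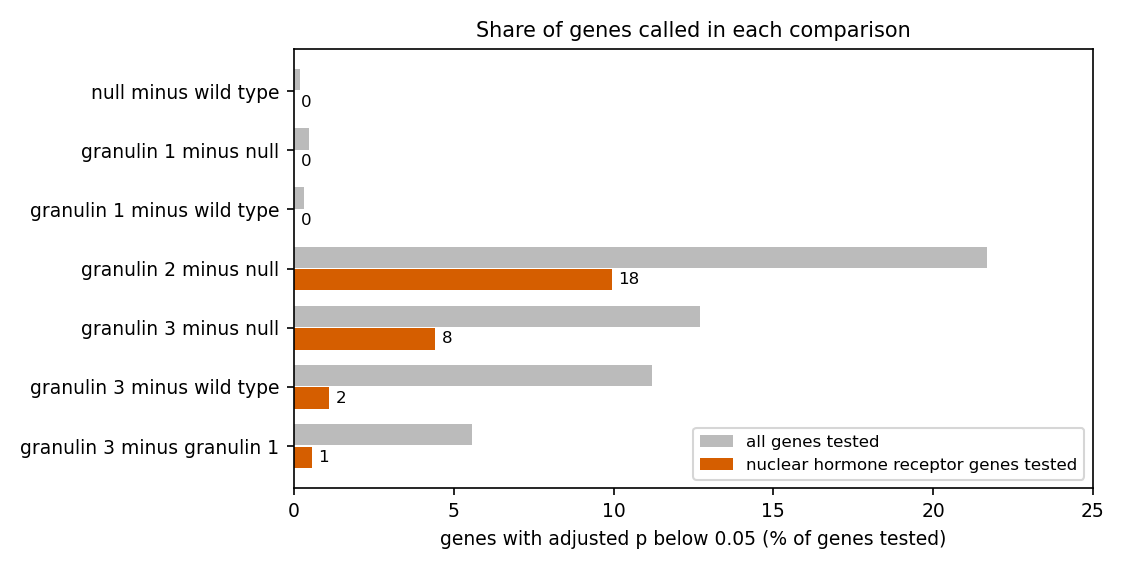
Share of genes with an adjusted p below 0.05 in each of the 7 comparisons, as a percentage of the genes tested, for all 15737 genes (grey) and for the 181 receptor genes tested (orange), with the number of receptor genes beside each orange bar. The largest number is 18, in granulin 2 against the null.

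The 2 genes with the smallest p in granulin 2 were nhr-116 and nhr-15. nhr-116 (chromosome V, 16912234 to 16915350, ce11) was at 0.467, 0.468, 0.437 and 0.476 CPM in the null and at 2.15, 1.66, 1.81 and 2.22 CPM in granulin 2. Wild type, granulin 1 and granulin 3 lay between these, at 0.72 to 1.27, 0.737 to 1.07 and 0.946 to 1.3 CPM. No null library and no granulin 2 library overlapped any other strain. The gene rose by 2.01 ± 0.26 on the log2 scale in granulin 2 against the null (SE, n = 4; limma adjusted p = 1.02e-05). F09C6.10 overlaps it on the opposite strand and had 235 reads over all libraries. The sources used here do not state the strand setting of the authors' counting, so reads of overlapping genes may be mixed.

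nhr-15 (chromosome V, 312721 to 323650, ce11) was at 0.367, 0.468, 0.437 and 0.558 CPM in the null and at 2.42, 1.65, 1.99 and 2.07 CPM in granulin 2. The other 3 strains were at 0.536 to 1.11 CPM, below every granulin 2 library. It rose by 2.09 ± 0.28 on the log2 scale in granulin 2 against the null (SE, n = 4; limma adjusted p = 1.39e-05). nhr-15 and nhr-116 kept their call in granulin 2 in all 12 other ways of processing and in all 8 fits that left out a library.

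nhr-57 is a target of the hypoxia-inducible factor HIF-1 and is widely used as a readout of hypoxia signalling. Its levels were 1.9, 1.85, 1.61 and 1.71 CPM in the null and 4.19, 4.56, 3.83 and 4.97 CPM in granulin 2, while wild type held 1.81 to 2.33 CPM, granulin 1 held 1.11 to 2.88 and granulin 3 held 1.53 to 1.91. The 4 granulin 2 libraries were above all 16 others. It rose by 1.29 ± 0.27 on the log2 scale against the null (SE, n = 4; limma adjusted p = 0.00111). This call is lost on the deposited scale (adjusted p = 0.119) and among protein-coding genes alone. The gene lies on chromosome V (4131889 to 4135102, ce11), and lgc-1 overlaps it on the same strand, with 163 reads in all.

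nhr-231 (chromosome V, 18790958 to 18794784, ce11) was at 0.456, 0.362, 0.218 and 0.427 CPM in the null, and at 1.29, 1.86, 1.86 and 0.891 CPM in granulin 2. Granulin 3 was at 1.13, 1.1, 1.08 and 1.13 CPM, and wild type at 0.345, 0.334, 0.445 and 0.551. Both granulin strains were above all null and wild-type libraries. The gene rose by 1.92 ± 0.35 on the log2 scale in granulin 2 against the null (SE, n = 4; limma adjusted p = 0.000326). Granulin 1 was at 0.545 to 0.589 CPM in 3 libraries and at 1.47 CPM in replicate 3.

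nhr-7 (chromosome IV, 11266265 to 11271362, ce11) was at 0.712, 0.489, 0.814 and 0.607 CPM in the null, 1.34, 2.32, 1.82 and 1.81 in granulin 2, and 1.89, 0.999, 1.82 and 1.87 in granulin 3. Wild type was at 0.635 to 1.16 CPM and granulin 1 at 0.561 to 0.865. It rose by 1.43 ± 0.30 on the log2 scale in granulin 2 against the null (SE, n = 4; limma adjusted p = 0.0012). That call was lost on the deposited scale (limma adjusted p = 0.119) and among protein-coding genes alone (limma adjusted p = 0.0566). Granulin 3 replicate 2 fell among the wild-type libraries and the other 3 granulin 3 libraries lay above them.

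**Figure D3:**
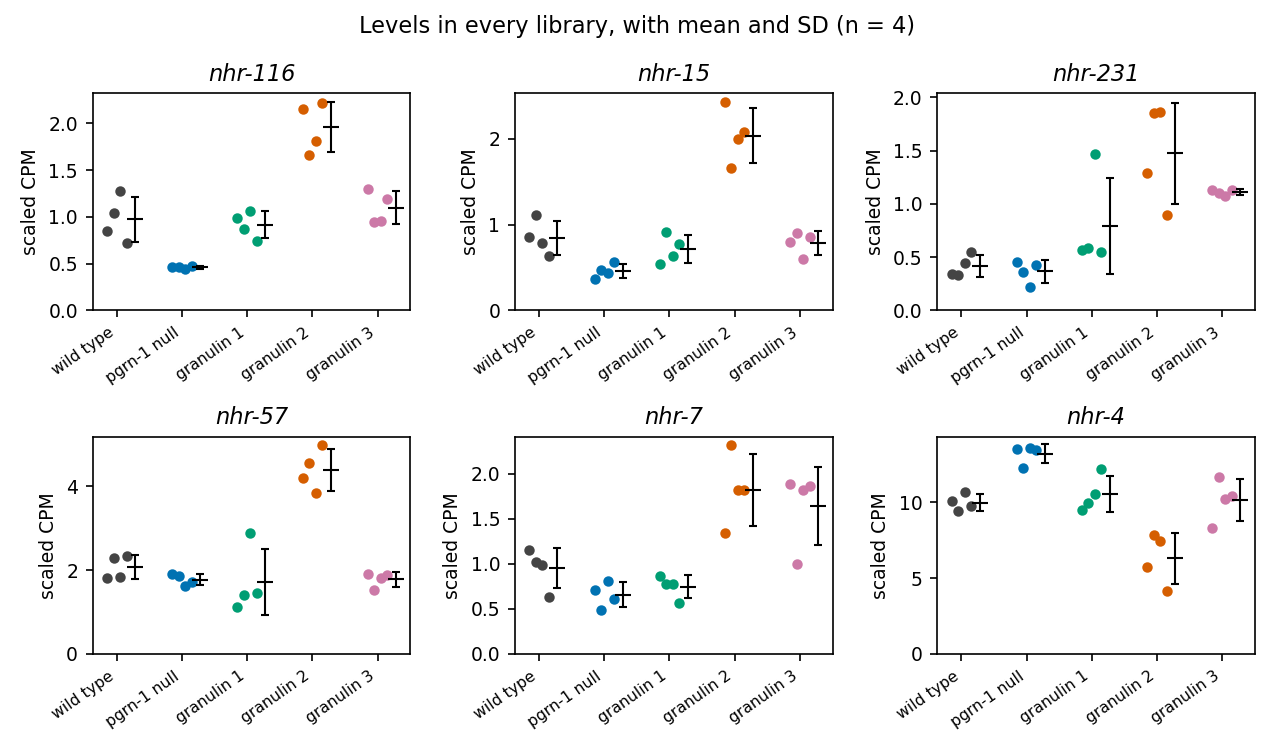
Scaled CPM of 6 receptor genes in every library, 4 points per strain, with the mean and SD beside them on axes that start at 0. Granulin 2 is above all other strains for nhr-116, nhr-15 and nhr-57 and below the null for nhr-4, and granulin 3 is level with granulin 2 for nhr-7.

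Neighbouring genes in 2 places on chromosome V rose together in granulin 2. Over all runs of neighbouring receptor genes, 12 of 97 tested were called in any comparison, beside 11.6% of all receptor genes tested. nhr-95 (19076604 to 19082641, ce11) and nhr-145 (19087723 to 19092660, ce11) are transcribed away from each other, 5081 bases apart. nhr-95 was at 3.94 to 4.96 CPM in the null and 9.21 to 13 CPM in granulin 2, and rose by 1.16 ± 0.27 on the log2 scale (SE, n = 4; limma adjusted p = 0.00328). nhr-145 was at 1.34 to 1.77 CPM in the null and 3.73 to 4.5 CPM in granulin 2, and rose by 1.41 ± 0.22 (SE, n = 4; limma adjusted p = 7.78e-05). In granulin 3 the levels were 2.9 to 6.1 CPM for nhr-95 and 1.55 to 2.2 CPM for nhr-145, which overlap the null. The nhr-95 call was lost without null replicate 2 (adjusted p = 0.0626). It was also lost on the deposited scale (limma adjusted p = 0.176) and among protein-coding genes alone (limma adjusted p = 0.107). The nhr-145 call was lost on the deposited scale (limma adjusted p = 0.0816).

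nhr-172 (7508994 to 7510779, ce11) and nhr-171 (7511765 to 7513726, ce11) lie 985 bases apart on the same strand and had the lowest levels among the genes called. nhr-171 had 1 read in the 4 null libraries together and 129 in granulin 2, a ratio of levels of 98.6 with a 95% exact counting interval of 17.4 to 3925. The interval pools the reads of each strain and leaves out the spread between libraries. The granulin 2 libraries were at 0.226, 0.473, 0.523 and 0.194 CPM and the wild-type libraries at 0 to 0.0607. The fitted log2 fold change was 3.46 ± 0.56 against the null (SE, n = 4; limma adjusted p = 8.49e-05), and its size depends on the prior count. nhr-172 was at 0 to 0.089 CPM in the null and 0.155 to 0.275 CPM in granulin 2, with a log2 fold change of 1.94 ± 0.62 (SE, n = 4; limma adjusted p = 0.0284). Its call was lost in 4 of 8 fits that left out a library (adjusted p up to 0.115). Both genes passed the filter on low counts largely through the strains in which they were higher, so their ratios and p-values are given as description only.

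The other 4 genes that rose in granulin 2 were nhr-65, nhr-158, nhr-123 and nhr-147, all on chromosome V. nhr-65 went from 2.78 to 3.3 CPM in the null to 5.96 to 9.87 CPM in granulin 2, with a log2 fold change of 1.36 ± 0.31 (SE, n = 4; limma adjusted p = 0.00226). The next gene to its left, the cytochrome P450 gene cyp-33D3, rose as well, but other neighbours moved against the receptor gene. fbxa-206, next to nhr-116, fell in granulin 2 against the null (log2 fold change -1.004 ± 0.29, limma adjusted p = 0.0157). cdh-7 rose (3.03 ± 0.82, limma adjusted p = 0.0103) next to nhr-61, which fell. Shared control of neighbours was not tested. nhr-158 had a log2 fold change of 1.30 ± 0.31 (adjusted p = 0.00425) and nhr-123 one of 1.20 ± 0.33 (limma adjusted p = 0.011). The nhr-123 call was lost without null replicate 2 or 3 (adjusted p up to 0.08), on the deposited scale and among protein-coding genes alone. The calls of nhr-65 and nhr-158 were lost on the deposited scale too (limma adjusted p = 0.0688 and 0.154). Among protein-coding genes alone they were lost as well (limma adjusted p = 0.0537 and 0.0887). nhr-147 overlapped between granulin 2, at 0.194 to 0.939 CPM, and the null, at 0.119 to 0.356 CPM, and its call (limma adjusted p = 0.0314) was lost in 6 of 8 fits that left out a library.

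Of the 5 genes that fell in granulin 2, nhr-4 (chromosome IV, 9879329 to 9882152, ce11) had the smallest p. It was at 13.5, 12.3, 13.6 and 13.4 CPM in the null, 5.75, 7.87, 7.46 and 4.16 CPM in granulin 2, and 8.32 to 12.2 CPM in the other 3 strains, so that granulin 2 was below and the null above all of them. Its log2 fold change was -1.104 ± 0.22 (SE, n = 4; limma adjusted p = 0.0009). prp-18, a splicing factor gene, overlaps nhr-4 on the opposite strand with 48827 reads in all. Its log2 fold change in the same comparison was -0.86 ± 0.32 (SE, n = 4; limma adjusted p = 0.0609). W01D2.1 overlaps nhr-61 on the opposite strand with 771740 reads in all.

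nhr-10, the partner of NHR-68 in the propionate shunt, was at 31.6, 20.1, 21.5 and 21.1 CPM in the null and 11.3, 19.4, 15.5 and 6.84 CPM in granulin 2. Its log2 fold change was -0.91 ± 0.31 (SE, n = 4; limma adjusted p = 0.0442), and the call was lost in 5 of 8 fits that left out a library, with adjusted p from 0.0698 to 0.187. The log2 fold change was -1.15 ± 0.32 for nhr-12 (adjusted p = 0.0112), -0.98 ± 0.29 for nhr-61 (adjusted p = 0.0186) and -0.95 ± 0.30 for nhr-193 (limma adjusted p = 0.0263). Leaving out 1 library ended the call of nhr-12 once (without granulin 2 replicate 4, adjusted p = 0.0533), of nhr-61 in 3 of 8 fits and of nhr-193 in 5 of 8. On the deposited scale, and without the libraries rich in ribosomal RNA, nhr-10, nhr-12, nhr-61 and nhr-193 were lost and nhr-4 was kept. With the letters of the library names as blocks, every fall was lost. The limma adjusted p was then 0.05 for nhr-4, 0.159 for nhr-10, 0.104 for nhr-12, 0.116 for nhr-61 and 0.0997 for nhr-193.

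**Figure D4:**
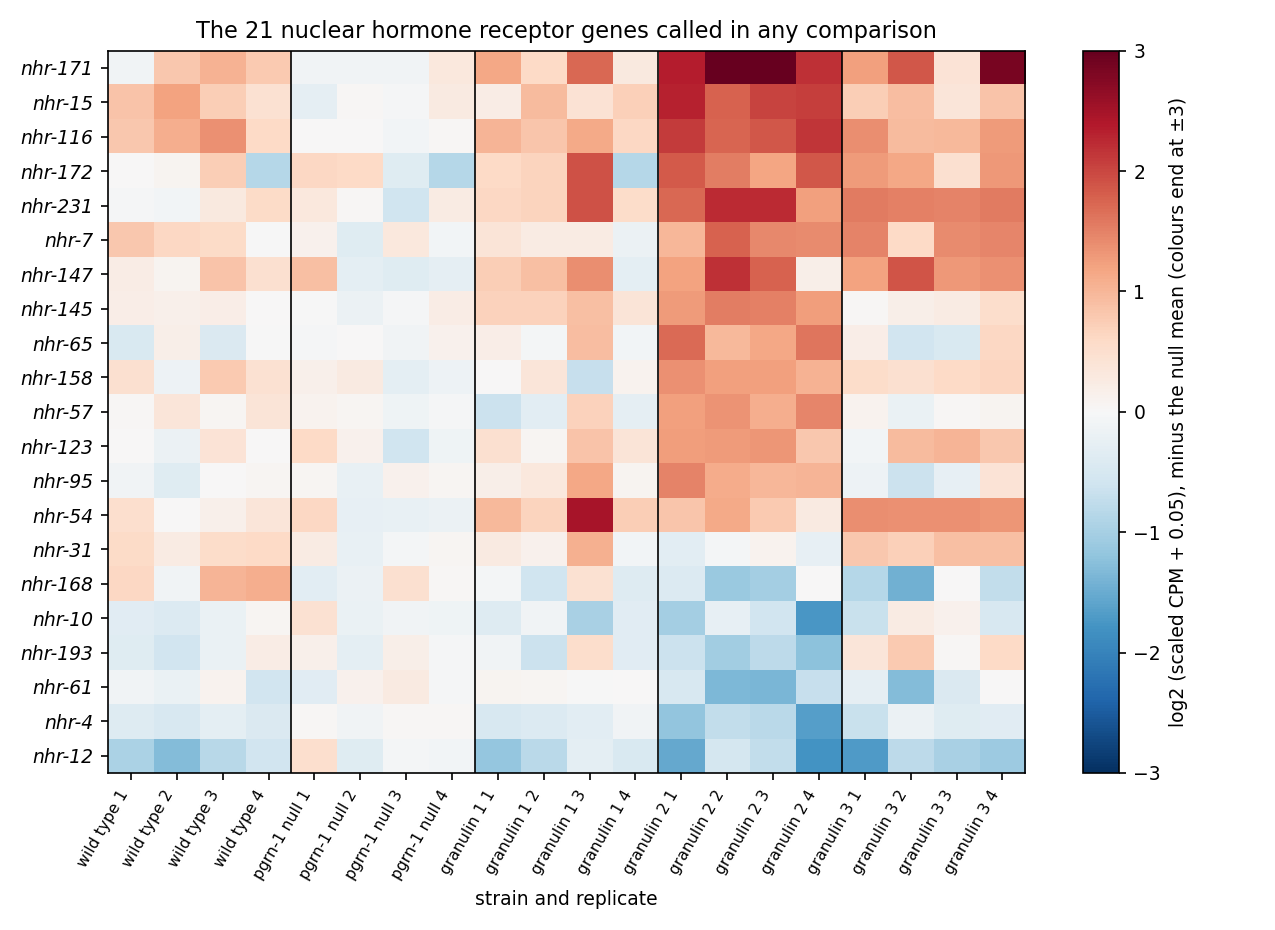
The 21 receptor genes called in any comparison, by library, as log2 (scaled CPM + 0.05) minus the mean of the 4 null libraries, red for higher and blue for lower, with colours ending at 3 in either direction. The 4 granulin 2 columns are red for most of the upper rows, and granulin 1 replicate 3 differs from the other granulin 1 columns.

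In granulin 3 against the null, 8 of 181 receptor genes changed (4.42%), against 12.7% of all genes. Of these, 7 were higher (3.87%, against 11.2% of all genes) and 1 was lower (0.552%, against 1.57%). The median log2 fold change was 0.27 over receptor genes and 0.07 over all genes. The count was 16 with the length slope as a covariate, 15 without the 5 libraries with steep slopes and 13 without the 4 libraries rich in ribosomal RNA. These counts too stand without the share of all genes called in the same runs. Sperm genes summed to 19 to 94.9 CPM in granulin 3. This comparison and that of granulin 2 share the 4 null libraries.

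nhr-116 was at 1.3, 0.946, 0.958 and 1.19 CPM in granulin 3 and rose by 1.19 ± 0.26 on the log2 scale against the null (SE, n = 4; limma adjusted p = 0.00408). These levels overlap wild type. nhr-231 rose by 1.58 ± 0.35 (SE, n = 4; limma adjusted p = 0.0049). These 2 calls held in every fit that left out 1 library and in the 11 other ways of processing tried. For nhr-7 the log2 fold change was 1.27 ± 0.30 (adjusted p = 0.0075), and for nhr-12 it was -1.14 ± 0.32 (limma adjusted p = 0.02). The nhr-12 call was lost without null replicate 1 or granulin 3 replicate 1 (adjusted p up to 0.0905), on the deposited scale and among protein-coding genes alone. nhr-171 had 72 reads in granulin 3, a ratio to the null of 43 with a 95% exact counting interval of 7.47 to 1721, and its call (limma adjusted p = 0.0165) was lost in 2 of 8 fits that left out a library. The limits given above for the nhr-171 ratio, interval and p-value hold here too.

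nhr-54 and nhr-31 also rose in granulin 3 against the null. In granulin 2 against the null, the log2 fold change of nhr-54 was 0.79 ± 0.37 (SE, n = 4; limma adjusted p = 0.15) and that of nhr-31 was -0.13 ± 0.25 (SE, n = 4; limma adjusted p = 0.796). nhr-54 was at 0.467, 0.234, 0.238 and 0.246 CPM in the null and at 0.83, 0.816, 0.818 and 0.793 CPM in granulin 3, a log2 fold change of 1.43 ± 0.37 (SE, n = 4; limma adjusted p = 0.0137). nhr-31, which controls vacuolar ATPase genes in the excretory cell, was at 28.7, 20.6, 23.1 and 25.2 CPM in the null, 42.7, 40.1, 45.7 and 45.6 CPM in granulin 3 and 28.8 to 36.7 CPM in wild type. The 4 granulin 3 libraries were above all others except granulin 1 replicate 3, at 51.2 CPM. The log2 fold change of nhr-31 was 0.84 ± 0.25 (SE, n = 4; limma adjusted p = 0.0266), and the call was lost in 6 of 8 fits that left out a library, with adjusted p up to 0.264. Without null replicate 2 only 3 receptor genes were called in granulin 3 against the null, and without granulin 3 replicate 1 there were 5. nhr-54 was lost without null replicate 2 (adjusted p = 0.124), as was nhr-7 (adjusted p = 0.0692), and nhr-147 (limma adjusted p = 0.031) was lost in 7 of 8 such fits.

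In granulin 3 against wild type, where the letters of the library names match, 2 receptor genes changed (1.1%), against 11.2% of all genes. nhr-231 rose by 1.37 ± 0.35 on the log2 scale (SE, n = 4; limma adjusted p = 0.0106). nhr-168 was at 4.65, 2.8, 6.19 and 6.48 CPM in wild type and 1.64, 1.09, 3.07 and 1.79 CPM in granulin 3, with a log2 fold change of -1.42 ± 0.37 (SE, n = 4; limma adjusted p = 0.0117). One granulin 3 library lay above the lowest wild-type library for nhr-168, and the call was lost without granulin 3 replicate 2 (adjusted p = 0.0541). The nhr-168 call was also lost on the deposited scale (limma adjusted p = 0.32) and among protein-coding genes alone (limma adjusted p = 0.0864). With the 2 strains alone it was lost too (limma adjusted p = 0.0524). The median log2 fold change was 0.17 over receptor genes and 0.03 over all genes. On the deposited scale, with no scaling between libraries, 17 receptor genes were called in this comparison and all 17 were higher. On that scale the median of all genes is itself shifted to 0.81.

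In granulin 3 against granulin 1, 1 receptor gene was called (0.552%), against 5.58% of all genes. It was nhr-7, at 0.865, 0.775, 0.778 and 0.561 CPM in granulin 1, with a log2 fold change of 1.08 ± 0.30 (SE, n = 4; limma adjusted p = 0.0377). The call was lost in 5 of 8 fits that left out a library, with adjusted p up to 0.129.

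The granulin 2 comparison with the null shares no library with that of granulin 3 with wild type. Over the 181 receptor genes tested, the log2 fold changes of these comparisons had Pearson's r of 0.185 and Spearman's rho of 0.116, and 95 genes (52.5%) had the same sign. Over all 15737 genes r was 0.651, rho 0.47 and the same-sign share 63.9%. These values are across genes, which are not independent replicates and share their libraries. nhr-231 was the receptor gene called in both, 5.56% of the granulin 2 calls and 50% of the granulin 3 calls. Over all genes, 1350 were called in both, 39.6% of the granulin 2 calls and 76.4% of the granulin 3 calls. The baselines of these comparisons differ, so the difference between their log2 fold changes also takes in the null against wild type. It is not a contrast between the granulins alone. For nhr-116 and nhr-15 the log2 fold change of the null against wild type was -1.0 and -0.84. The difference was itself tested, a contrast added after the data had been seen. It was called for 5 receptor genes (2.76%, against 2.58% of all genes): nhr-15 at 2.18 ± 0.39 (limma adjusted p = 0.00265), nhr-116 at 1.82 ± 0.36 (adjusted p = 0.00679), nhr-145 at 1.30 ± 0.32 (adjusted p = 0.0301), nhr-57 at 1.51 ± 0.38 (adjusted p = 0.0374) and nhr-193 at -1.64 ± 0.42 (limma adjusted p = 0.0418). Of these, the difference for nhr-15 was called in all 16 fits that left out a library. The call was lost in 1 of 16 for nhr-116, 11 for nhr-145, 14 for nhr-57 and 14 for nhr-193, and those of nhr-57 and nhr-193 were also lost with the stricter filter. Without the 5 libraries with steep slopes the call was kept for nhr-15 alone, and for the other 4 the adjusted p was 0.063 to 0.134. The calls of nhr-15, nhr-116, nhr-145 and nhr-57 were lost on the deposited scale, with adjusted p from 0.239 to 0.787, and among protein-coding genes alone.

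**Figure D5:**
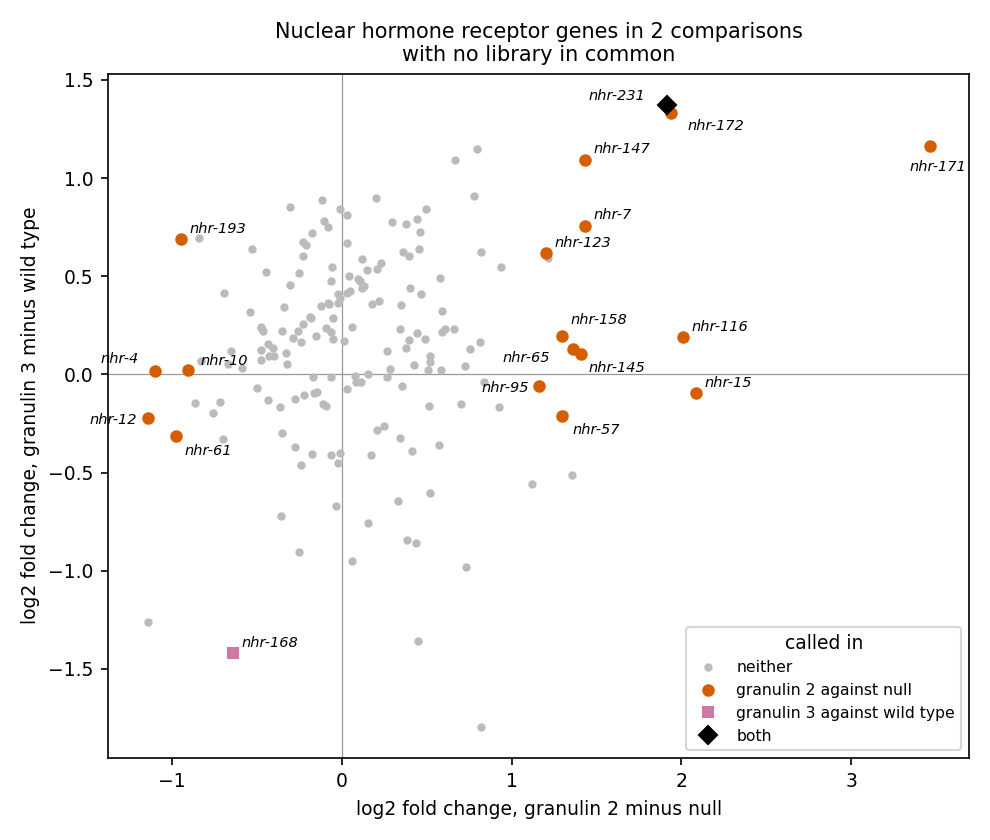
Log2 fold changes of the 181 receptor genes tested in granulin 2 minus null (horizontal) and granulin 3 minus wild type (vertical), 1 point per gene, with the genes called in either comparison named. nhr-231 is the gene called in both, and nhr-15, nhr-57 and nhr-95 lie far to the right and close to 0 vertically.

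Of the receptors conserved across animals, 8 of 9 were tested and 0 of 8 were called in any of the 7 comparisons, where 21 of 181 receptor genes (11.6%) and 26.7% of all genes were called in at least 1. These included nhr-6, an NR4A receptor needed for the spermatheca, nhr-8, a receptor in xenobiotic and cholesterol metabolism, nhr-41, nhr-48, nhr-67, the tailless homolog, nhr-85, the Rev-Erb homolog, nhr-91 and nhr-236. nhr-111 had at most 3 reads in a library and was not tested. nhr-8 was at 3.98 ± 1.82 CPM per kilobase in wild type, 4.66 ± 0.416 in the null and 2.69 ± 0.769 in granulin 2 (SD, n = 4 each), and its log2 fold change in granulin 2 was -0.83 ± 0.32 (limma adjusted p = 0.0671). nhr-41 was at 1.38 ± 0.159 CPM per kilobase in the null and 3.35 ± 1.52 in granulin 2 (SD, n = 4 each), with a log2 fold change of 1.12 ± 0.41 (limma adjusted p = 0.0565). Counted over the 7 comparisons together, the 8 genes gave 5 values with an unadjusted p below 0.05 from limma, and voom called 0.

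Of 12 metabolic receptors, all tested, nhr-10 fell in granulin 2 and nhr-31 rose in granulin 3 against the null, and the other 10 were called in no comparison. The 10 include nhr-49, its partners nhr-13, nhr-66 and nhr-80, nhr-68, nhr-69 and nhr-114. nhr-62, which is needed for the longer life of diet-restricted animals, was at 2.65 ± 0.245 CPM per kilobase in wild type and 1.77 ± 0.162 in the null (SD, n = 4 each; limma adjusted p = 0.59). nhr-64 was at 2.62 ± 0.188 CPM per kilobase in the null and 4.35 ± 0.44 in granulin 2 (SD, n = 4 each; limma adjusted p = 0.0561). Of 9 receptors linked to stress and foreign compounds, nhr-57 rose in granulin 2 and 8 were called nowhere, among them nhr-86, which senses a bacterial metabolite, and nhr-176, which acts in the metabolism of a drug. Of 8 receptors linked to development, among them nhr-6, nhr-67, nhr-85 and nhr-91 again, 0 were called in any comparison by limma or voom, with 1 unadjusted p below 0.05 over the 7 comparisons.

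Genes that are known targets of these receptors, or make the ligand of a related one, were read from lists. The dafachronic acid genes make or regulate the steroid ligand of the receptor DAF-12, and 3 of 8 tested rose in granulin 2 against the null: daf-9, with a log2 fold change of 1.61 ± 0.43 (limma adjusted p = 0.00883), dhs-16, with 2.02 ± 0.53 (adjusted p = 0.00776), and strm-1, with 1.62 ± 0.31 (limma adjusted p = 0.000556). daf-9 encodes the cytochrome P450 for the last step, whereas strm-1 encodes a methyltransferase that diverts sterols away from it. In granulin 3 against the null dhs-16, hsd-2 and strm-1 rose (voom called 2 of the 8), and against wild type hsd-2 and ncr-2 rose. The median log2 fold change of the 8 genes was 1.31, 0.79 and 0.41 in these 3 comparisons, against 0.04, 0.07 and 0.03 over all genes. Of all genes tested, 17.5% were higher in granulin 2 and 11.2% in granulin 3 against the null. In granulin 3 against wild type 11.2% were called in either direction.

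Of 9 tested targets of NHR-49, stdh-1 fell in granulin 2 against the null (log2 fold change -1.24 ± 0.38, limma adjusted p = 0.0235) and fat-5, a palmitate desaturase, fell in granulin 3 against wild type (-2.68 ± 0.82, limma adjusted p = 0.0377). Of 9 propionate shunt genes and 12 methionine cycle genes, 0 were called in any of the 7 comparisons by limma or voom. The shunt genes gave 5 values with an unadjusted p below 0.05 over these comparisons, and the methionine cycle genes gave 0. Of all genes tested, 26.7% were called in at least 1 of the 7. In granulin 3 the median log2 fold change of the shunt genes was -0.82 against the null and -0.98 against wild type. For the NHR-49 targets it was -0.71 and -0.36, for the methionine cycle genes -0.10 and -0.33, and over all genes 0.07 and 0.03. Of the 8 tested genes of other nuclear receptors and coregulators, unc-55 rose in granulin 3 against the null (1.49 ± 0.38, limma adjusted p = 0.0124) and nhr-25 fell in granulin 3 against wild type (-1.53 ± 0.46, limma adjusted p = 0.0329).

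Some markers of other tissues were called in the same strains. Of all genes tested, 17.5% were higher in granulin 2 and 11.2% in granulin 3 against the null. In granulin 3, 11.2% of all genes were called against wild type and 5.58% against granulin 1, in either direction. Of 17 sperm genes tested, 16 rose in granulin 2 and 11 in granulin 3 against the null, 13 in granulin 3 against wild type and 5 in granulin 3 against granulin 1. Their summed level spanned 4.32 to 9.12 CPM in the wild-type libraries, 6.32 to 13.3 in null libraries, 8.97 to 23.4 for granulin 1, 65.5 to 125 for granulin 2 and 19 to 94.9 for granulin 3. spe-29 was at 0 reads in all wild-type and null libraries. Of 10 hypodermis and cuticle genes, 7 rose in granulin 2 and 2 in granulin 3 against the null, and 1 rose in granulin 3 against wild type. The summed level of the 10 was 455 to 1466 CPM in granulin 2 and 402 to 877 CPM in the null. In wild type it was 600 to 2323 CPM, so the granulin 2 libraries overlapped both strains. Of 10 neuronal genes, unc-10, unc-104 and unc-31 rose in granulin 2, where the summed level was 124 to 198 CPM against 55.6 to 66.6 CPM in the null. In wild type the summed level of these neuronal genes was 62.8 to 178 CPM, which overlaps granulin 2. Of 12 oocyte and eggshell, 10 intestinal and 8 body muscle genes, 0 were called in any comparison by limma or voom, with 5, 4 and 5 values of an unadjusted p below 0.05 over the 7 comparisons. The part of these shifts in the receptor values was not tested, and in whole animals fewer cells of a type and less RNA per cell cannot be told apart.

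A test for any difference among the 5 strains (limma's F test in the same fit) called 17 of 181 receptor genes (9.39%), against 21.5% of all genes. nhr-116 had the smallest adjusted p, 9.29e-05, followed by nhr-15 at 0.000102 and nhr-145 at 0.000286. Without granulin 1 replicate 3 this test called 31 receptor genes, and the share of all genes called in that fit is not given here.

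By position, 117 of the 181 receptor genes tested and 16 of the 21 called in any comparison lie on chromosome V. Of the other 5 called, 3 lie on IV and 1 each on II and III, and 160 of the 181 tested were called in none. As a share of the receptor genes tested this was 13.7% on V and 11.1% on IV, beside 11.6% over all chromosomes, and 0 of 7 were called on I and 0 of 15 on X. Of all genes tested, 29.6% were called on V, 30.8% on IV, 26.1% on I and 19.8% on X. In runs of neighbouring receptor genes, 12 of 97 tested were called.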

How the data were processed

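The authors deposited 1 table of log2 CPM per library, on a log2 scale, for 20 libraries. Per the submitters' processing notes, STAR, HTSeq, edgeR and limma and the build ce11 were used, with no versions, and per the labels' protocols RNA came from a miRNeasy kit and went into stranded total RNA libraries. The linear values were whole multiples of a step per library, from which whole reads were recovered (7 values missed the tolerance of 0.01 reads, prior count 2). Symbols and coordinates came from Ensembl release 115 (WBcel235, the same build as ce11), which held 46603 of the 46778 IDs.

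As the files hold log2 values, the test was limma 3.58.1 (R 4.3.3) with its trend and robust options. Its input was log2 CPM recomputed with a prior count of 2 and trimmed-mean scaling (30% of ratios and 5% of levels trimmed). All 20 libraries were fitted with 1 mean per strain. Genes needed 0.177 CPM (10 reads at the median library) in 4 or more libraries and a total of 15 reads. P-values were adjusted by Benjamini-Hochberg over 15737 genes (threshold 0.05). Fold changes are first strain minus second and understate low genes. Counting intervals cover counting error only. The fit was tested on simulated data.

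Members and lists were chosen with earlier results of these data known. Named genes were the called genes of each comparison (all, where at most 20), the listed genes and the 10 highest levels. Read sharing between near-identical paralogs was not examined. Sequences were not used here.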

Additional observations from a re-analysis of the deposited data

Results flagged for a closer look

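In 145 groups of 4 libraries, for the called genes and the 10 highest, 15 held a library far from the other 3, where chance gives about 1 in 20. Values are scaled CPM.

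Granulin 1 replicate 3 was highest for nhr-54 at 1.81 CPM (the other 3 libraries 0.481 to 0.605) and for nhr-231 at 1.47 CPM (0.545 to 0.589), and lowest for nhr-66 at 12.9 CPM (the others up to 136) and for nhr-46 at 7.89 CPM (34 to 40.1). Null replicate 1 was highest for nhr-10 at 31.6 CPM (20.1 to 21.5), for nhr-54 at 0.467 CPM (0.234 to 0.246) and for nhr-147 at 0.356 CPM (0.119 to 0.131), and lowest for nhr-66 at 39.6 CPM (115 to 127). In the other libraries, null replicate 2 was lowest for nhr-4 at 12.3 CPM (13.4 to 13.6), null replicate 3 was lowest for nhr-114 at 36.3 CPM (111 to 139) and null replicate 4 was highest for nhr-171 at 0.0164 CPM (1 read, with 0 in the other 3). Wild type replicate 2 was lowest for nhr-31 at 28.8 CPM (35.4 to 36.7), granulin 2 replicate 4 for nhr-123 at 0.923 CPM (1.27 to 1.34), granulin 3 replicate 2 for nhr-7 at 0.999 CPM (1.82 to 1.89) and granulin 3 replicate 3 for nhr-172 at 0.0754 CPM (0.153 to 0.173).

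The change in granulin 2 against the null differed from that in granulin 3 against wild type for 5 genes by limma's test of the difference (log2, Benjamini-Hochberg adjusted): nhr-15 by 2.18 (adjusted p = 0.00265), nhr-116 by 1.82 (adjusted p = 0.00679), nhr-145 by 1.30 (adjusted p = 0.0301), nhr-57 by 1.51 (adjusted p = 0.0374) and nhr-193 by -1.64 (adjusted p = 0.0418). Of these 5, 1 held in all of the fits without 1 library and 0 held in every alternative run, and nhr-57 and nhr-193 were each lost in 14 of 16 fits that left out a library. The tested difference also takes in the null against wild type, so it is not one between the granulins alone.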

How the results depend on the processing

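No called gene reversed its direction under any alternative run. The counts of receptor genes called were 18 in granulin 2 against the null, 8 in granulin 3 against the null, 2 in granulin 3 against wild type, 1 in granulin 3 against granulin 1 and 17 for any difference among the 5 strains. On the deposited scale these were 5, 6 (6 higher, 0 lower), 17, 0 and 8, and there the median log2 fold change of all genes moved to -0.18, 0.43, 0.81 and 0.36 in the 4 comparisons. The granulin 3 against granulin 1 call was lost (0) with median-of-ratios scaling, no filter, the strict filter of 1 CPM, a prior count of 0.5, protein-coding genes alone and the 2 strains alone. The strict filter left 10 for any difference and protein-coding genes alone left 11. Among protein-coding genes the split in granulin 2 against the null was 5 higher and 7 lower, with the all-gene median at -0.30. With median-of-ratios scaling the split in granulin 3 against the null was 6 higher and 2 lower. With each library's length slope as a covariate the counts were 2 for the null against wild type, 35, 16, 2 for granulin 3 against granulin 1 and 41 for any difference. Without the 5 libraries with steep slopes granulin 3 had 15 against the null and 2 against granulin 1. Without the 4 libraries rich in ribosomal RNA it had 13 against the null and 5 against wild type. The cause of these moves was not tested. In this section the counts of the alternative runs stand without the share of all genes called in the same run. A gain or loss of calls is therefore not read as a result about the receptor genes.

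Leaving out 1 library gave 12 to 17 calls in granulin 2 against the null, 3 to 8 in granulin 3 against the null, 2 to 3 in granulin 3 against wild type and 0 to 2 in granulin 3 against granulin 1. For any difference it gave 12 to 31, the highest without granulin 1 replicate 3. Of the 18 granulin 2 calls, 10 held in every such fit, and nhr-15, nhr-116 and nhr-231 also held in all 12 alternatives. nhr-171 held in the 8 in which it was tested, but it passed the filter through the strain in which it was high.

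With the letter as a replicate block, 11 receptor genes were called in granulin 2 against the null (11 higher, 9 of them shared with the 18), 1 in granulin 3 against wild type (nhr-231 was lost, adjusted p = 0.0674) and 0 in granulin 3 against granulin 1. The falls of nhr-4, nhr-10, nhr-12, nhr-61 and nhr-193 in granulin 2 were all lost with this block. Same-letter libraries had correlations of their deviations from -0.28 to 0.58 for the letters A to D and from -0.59 to 0.28 for E to H. No correlations of libraries with different letters are given beside them, so these values do not decide whether the letters pair libraries. The main fit did not pair them.

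With no filter, 260 receptor genes were tested and 24 were called in granulin 2 against the null. The genes under the filter have few reads, so their values carry more counting error.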
